A study of Homo sapiens with 48 samples.

Results

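The comparison described here is between BAF inhibition and protein kinase C inhibition in the uveal melanoma cell line 92-1 after 4 h of treatment. It rests on 12 of the 48 RNA-seq samples of the study, in 4 groups of 3. The first pair of groups is 92-1 treated with FHT-1015 (replicates 1 to 3) and its DMSO controls (replicates 1 to 3). The second pair is 92-1 treated with IDE196 (replicates 1 to 3) and a separate set of DMSO controls, numbered 4 to 6 and labelled as the negative control for IDE196. All 4 groups are the same wild-type line at the same time point, and poly-A RNA was sequenced in each. Wild-type here says nothing about the driver mutations of the tumour, which were not examined. The doses of the drugs are not given in the labels. The titles call the replicates biological, but nothing says whether they came from separate passages or days, so the p-values measure the spread between these samples. For every gene the effect of FHT-1015 against its own DMSO was set against the effect of IDE196 against its own DMSO. A gene was opposite when both drugs moved it past the threshold with different signs and the difference of the 2 effects also passed. A gene was responsive to 1 drug only when that drug moved it, the other did not, and the difference passed. The 12 libraries of 92-1 at 24 h were in the same fit, where they share the filter on low counts and the estimate of spread, and libraries of other lines were fitted separately.

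BAF complexes (SWI/SNF) slide and evict nucleosomes with the energy of ATP, and their motor is either SMARCA4 (BRG1) or SMARCA2 (BRM). FHT-1015 inhibits both ATPases, and loss of their activity closes enhancers, among them those bound by lineage transcription factors such as SOX10 and MITF in melanocytic cells. Uveal melanoma is usually driven by activating mutations of the G protein alpha subunits GNAQ or GNA11, which signal through phospholipase C beta to protein kinase C, and then through RASGRP3 to RAS and the MAPK cascade. IDE196 (darovasertib) inhibits protein kinase C. Genes that follow MAPK activity closely are the immediate early genes, such as FOS and EGR1, and the feedback inhibitors of the pathway, such as the Sprouty proteins and the dual-specificity phosphatases.

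The libraries held between 16211413 and 25466193 reads assigned to genes. The 2 DMSO sets differed from each other for 7797 of 16917 genes tested (46.1%), so every level below is read against the DMSO of its own experiment, and drug and experiment cannot be told apart in the difference between the drugs. Melanocytic markers were present throughout: SOX10, MITF, PMEL, MLANA, TYR and DCT together made between 8350 and 11000 CPM in each library (reads scaled to library size alone for the marker sums of this paragraph, and also by TMM factors for the levels of genes below). The 6 fibroblast markers summed to 2.47 to 4.31 CPM in the FHT-1015 experiment and to 9.98 to 36.9 CPM in the IDE196 experiment, in treated and control libraries alike. The melanocytic sum was 8460 to 8660 CPM with FHT-1015 against 10400 to 11000 CPM in its DMSO, and 8430 to 8910 CPM with IDE196 against 8350 to 8620 CPM. Immune and endothelial marker sums were at most 0.577 and 0.871 CPM, those of epithelium at most 5.70 CPM and those of retinal pigment epithelium at most 5.02 CPM. Reads outside annotated genes made 5.64 to 6.77% with FHT-1015 against 4.46 to 4.86% in its DMSO, a rise without overlap, whereas the shares with IDE196 (2.44 to 3.27%) overlapped those of its DMSO (2.35 to 3.22%). Mitochondrial reads made 7.32 to 9.03% with FHT-1015 and 6.61 to 7.54% in its DMSO, which overlap. The part of these shifts in the FHT-1015 effects was not tested.

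Most genes that FHT-1015 moved at 4 h were not called for IDE196, and of the genes that both drugs moved more went in opposite directions than in the same direction. FHT-1015 changed 4659 of the 16917 genes (27.5%), 1908 up (11.3%) and 2751 down (16.3%). IDE196 changed 2688 (15.9%), 1161 up (6.86%) and 1527 down (9.03%). Both drugs changed 1206 genes, which is 25.9% of the FHT-1015 calls and 44.9% of the IDE196 calls. Of these, 689 (57.1%) moved in opposite directions and 517 in the same direction. The test of the difference between the drugs passed for 4169 genes (24.6%), with 1804 higher (10.7%) and 2365 lower (14.0%) under FHT-1015 relative to IDE196. In these bulk samples fewer cells of a type and less RNA per cell cannot be told apart. A fit of all 48 libraries together called fewer genes, 11.1% for FHT-1015, 4.74% for IDE196 and 9.31% for the difference, and counts of list members from that fit are to be read against those shares. All calls are edgeR quasi-likelihood tests at a Benjamini-Hochberg adjusted p under 0.05.

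Among the opposite genes, 334 rose with FHT-1015 and fell with IDE196, with median log2 fold changes of 0.49 and -0.59, and 355 did the reverse, with medians of -0.86 and 0.57. The balance of the 2 classes turns with the scaling: 48.5% of the opposite genes were up with FHT-1015 here, 54.0% with library size alone and 54.5% with GC and length offsets. Few opposite genes moved far with both drugs: 84 had a log2 fold change over 1 in size for both drugs, 27 of them up with FHT-1015 and 57 down. A further 702 genes rose and 1355 fell with FHT-1015 only, and 353 rose and 543 fell with IDE196 only. In 524, 959, 237 and 444 of these, in that order, the 95% interval of the other drug's effect lay within a 1.5-fold change in either direction. With offsets for GC content and gene length the genes responsive to FHT-1015 only divided into 1020 up and 1220 down, so the size of the excess of falls depends on those offsets; the difference between the drugs was then higher for 50.5% of its calls, against 43.3% without them. In another 1396 genes changed by FHT-1015 and not by IDE196, and 586 changed by IDE196 and not by FHT-1015, the difference between the drugs did not pass, so no difference was shown for them. Over all tested genes the 2 sets of log2 fold changes had a Pearson correlation of -0.049 and a Spearman correlation of -0.042. These are correlations over genes, and genes are no independent replicates. The scatter of the 2 effects forms a cross, with arms along each axis, rather than a diagonal.

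**Figure D1:**
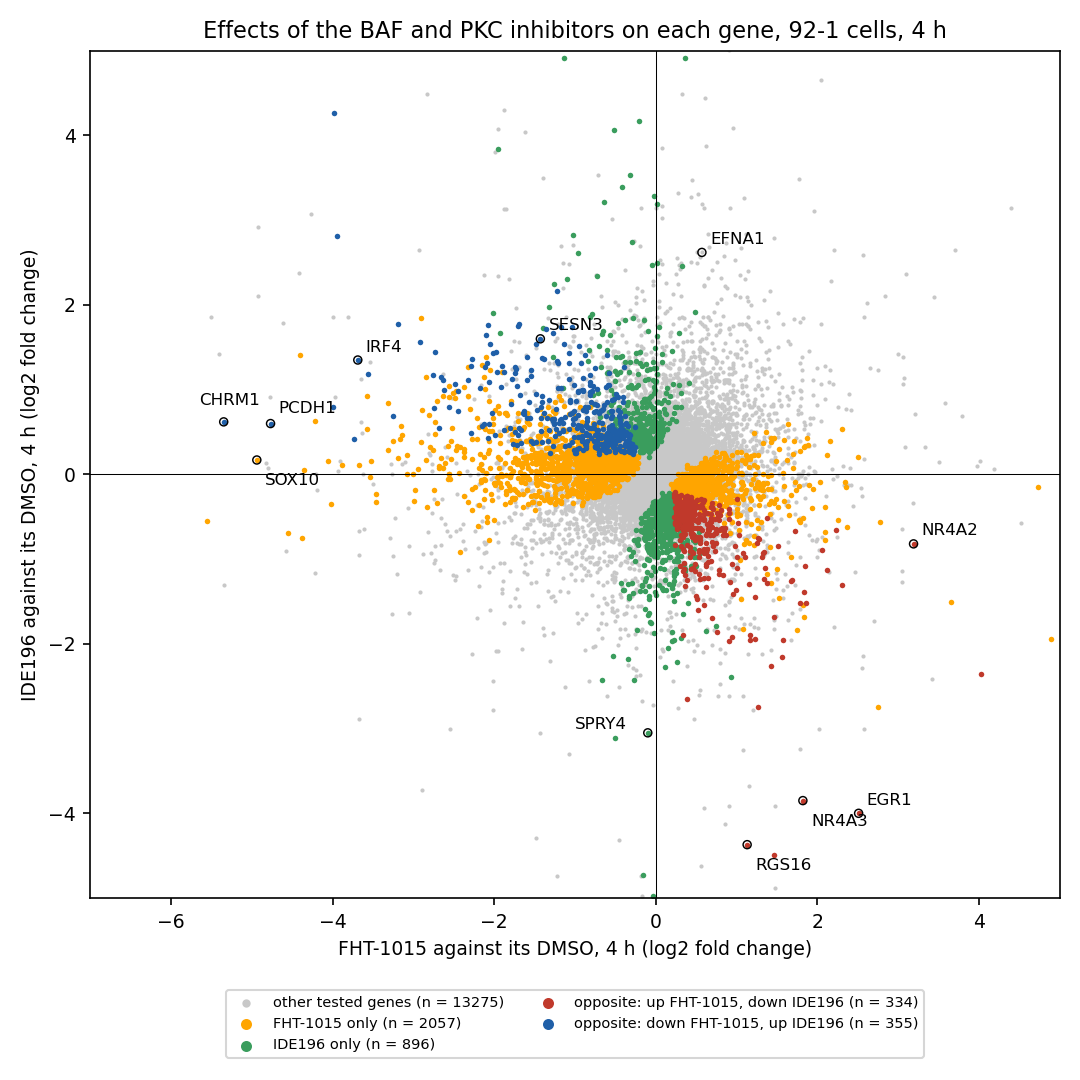
Log2 fold change of each tested gene with FHT-1015 (x axis) and with IDE196 (y axis) against its own DMSO in 92-1 at 4 h, coloured by response. Opposite genes fill the upper left (355) and lower right (334), FHT-1015-only genes (2057) lie along the horizontal axis and IDE196-only genes (896) along the vertical one, and 12 genes lie beyond the axes.

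Among the 283 protein-coding genes up with FHT-1015 and down with IDE196 that averaged at least 5 CPM and whose replicates did not overlap their controls, the 6 with the largest difference between the drugs were EGR1, NR4A3, RGS16, RGS2, NR4A2 and SPRY1: an immediate early zinc finger factor, a pair of NR4A orphan nuclear receptors, a pair of GTPase-activating proteins that switch off G protein alpha subunits, and a Sprouty inhibitor of receptor tyrosine kinase to MAPK signalling. EGR1 (ENSG00000120738.8, chromosome 5, 138465490 to 138469315, GRCh38) stood at 10.3, 9.43 and 15.2 CPM in DMSO and at 59.3, 62.4 and 77.1 CPM with FHT-1015. In the IDE196 experiment it stood at 14.4, 18.7 and 10.2 CPM in DMSO and at 0.382, 1.61 and 0.781 CPM with the drug. The 2 DMSO sets were thus at about the same level and the treated groups lay far above and far below it, with no overlap. EGR1 rose 5.70-fold with FHT-1015 and fell 16.0-fold with IDE196, and the difference between the drugs was 6.51 on the log2 scale (SE 0.40, edgeR adjusted p 2.99e-12).

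NR4A3 (ENSG00000119508.18, chromosome 9, 99821855 to 99866891) went from 215, 232 and 233 CPM in DMSO to 900, 821 and 680 CPM with FHT-1015. With IDE196 it went from 276, 221 and 277 CPM to 18.5, 15.7 and 19.4 CPM. The treated replicates were close together in both experiments, 3.53-fold above and 14.4-fold below their controls. The difference between the drugs was 5.67 (SE 0.19, edgeR adjusted p 2.64e-17). RGS16 (ENSG00000143333.7, chromosome 1, 182598623 to 182604408) rose from 16.2, 12.1 and 11.8 to 33.0, 25.5 and 29.2 CPM with FHT-1015 and fell from 16.7, 14.6 and 20.5 to 0.637, 0.881 and 1.00 CPM with IDE196. For RGS16 the fall (20.7-fold) was thus the larger change and the rise (2.19-fold) the smaller one, and for NR4A2 it was the reverse. NR4A2 (ENSG00000153234.14, chromosome 2, 156324432 to 156342348) rose from 3.51, 4.35 and 6.43 to 33.6, 44.9 and 51.5 CPM with FHT-1015, 9.11-fold, and fell from 3.75, 2.96 and 3.54 to 2.34, 1.56 and 1.84 CPM with IDE196, 1.76-fold. Its IDE196 call was lost when DMSO replicate 4 or 6 or IDE196 replicate 2 or 3 was left out (log2 fold change -0.79 to -0.69), with limma-voom (-0.86) and with all 48 libraries in one fit (-0.82). Its difference between the drugs, 4.00 (SE 0.31, edgeR adjusted p 2.57e-10), passed in each of these fits.

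**Figure D2:**
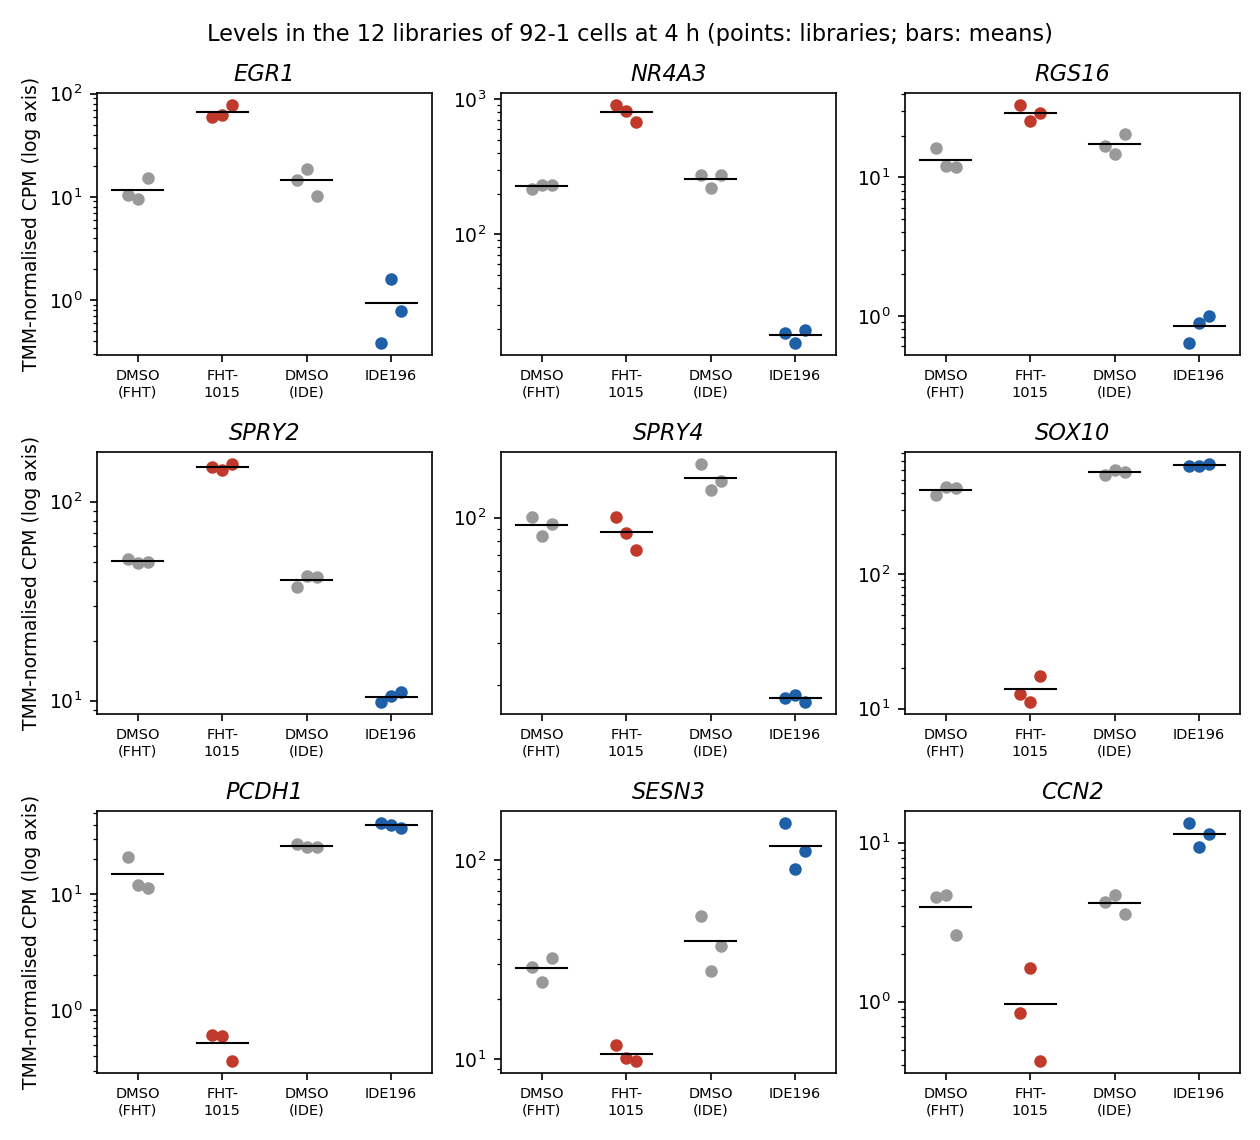
TMM-normalised CPM on log axes of 9 genes in the 12 libraries of 92-1 at 4 h: points are libraries, bars are means, and the columns are DMSO for FHT-1015, FHT-1015, DMSO for IDE196 and IDE196. EGR1, NR4A3, RGS16 and SPRY2 sit above their DMSO with FHT-1015 and below it with IDE196, PCDH1, SESN3 and CCN2 do the reverse, SPRY4 falls with IDE196 only and SOX10 with FHT-1015 only.

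The promoters of EGR1 and NR4A3 are shown because these are the opposite genes at the head of the comparison and both are textbook targets of signal-dependent factors. The 250 bases before the transcription start are given, 5′ to 3′ on the gene's strand (RefSeq, GRCh38.p14), at chr5:138465229-138465478 (+) for EGR1 and chr9:99821635-99821884 (+) for NR4A3. RefSeq and GENCODE place the starts differently, and the end of the NR4A3 window, with its last match, lies inside the gene as GENCODE places it. Capitals mark CArG boxes, the motif of serum response factor, and the 5-base core TGACG of cAMP response elements, also read on the other strand, to which CREB and ATF factors bind.
EGR1: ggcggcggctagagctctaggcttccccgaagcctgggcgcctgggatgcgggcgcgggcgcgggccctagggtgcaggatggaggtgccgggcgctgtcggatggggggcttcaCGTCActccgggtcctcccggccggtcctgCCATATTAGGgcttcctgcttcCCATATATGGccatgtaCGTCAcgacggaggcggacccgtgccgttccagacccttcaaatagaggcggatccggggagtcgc
NR4A3: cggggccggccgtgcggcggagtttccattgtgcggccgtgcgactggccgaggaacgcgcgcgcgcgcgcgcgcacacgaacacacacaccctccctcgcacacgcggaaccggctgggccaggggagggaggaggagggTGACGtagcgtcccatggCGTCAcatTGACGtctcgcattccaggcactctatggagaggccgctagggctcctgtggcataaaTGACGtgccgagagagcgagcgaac
The EGR1 window holds 2 CArG boxes and 2 of these cores, and the NR4A3 window holds 4 cores and no CArG box. Among the 279 genes up with FHT-1015 and down with IDE196 that had a promoter in the table, 35.5% held the core and 1.43% a CArG box, against 29.8% and 1.07% of the 11488 tested genes with a promoter. Over all 27305 promoters in the table the shares were 21.7% and 1.14%. A match describes these letters in this window and shows no binding.

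Immediate early genes as a list divided between the drugs. Of 19 members tested, 7 rose and 2 fell with FHT-1015, 3 rose and 10 fell with IDE196, and the difference between the drugs was higher for 11 and lower for 5 (median 1.35, against -0.023 over all genes). Members called were thus 47.4%, 68.4% and 84.2%, against 27.5%, 15.9% and 24.6% of all genes. With all 48 libraries in one fit the lower differences numbered 3, and without FHT-1015 replicate 3, with limma-voom or with no filter 4 members fell with FHT-1015. FOS, the partner of JUN in AP-1, went from 12.5, 12.9 and 11.3 to 21.5, 24.1 and 24.9 CPM with FHT-1015 and from 10.2, 14.7 and 11.7 to 3.78, 2.39 and 3.46 CPM with IDE196. IER2 went from 39.7, 36.4 and 34.8 to 89.9, 95.6 and 120 CPM and from 22.3, 22.5 and 24.0 to 8.92, 4.93 and 7.42 CPM. Both genes were therefore separated from DMSO in each of the 2 experiments, with differences between the drugs of 2.86 (SE 0.25, edgeR adjusted p 2.63e-09) and 3.14 (SE 0.23, 7.23e-11). FOSB (log2 fold change 1.69 with FHT-1015 and -1.25 with IDE196), JUNB (0.95 and -1.41) and EGR3 (1.46 and -4.49) were opposite too, the rise of EGR3 being lost without DMSO replicate 1 or 2 (1.33 to 1.38). FOSL1 fell with IDE196 (-1.87), with an FHT-1015 value of -0.02 that did not pass. Other members behaved differently. ATF3, a stress-responsive factor, rose with IDE196 only (1.09, against -0.01), and IER5 fell with FHT-1015 only (-1.46, against -0.07). JUN rose with IDE196 (1.47), and its FHT-1015 value of -0.61 did not pass here but did in 6 other fits (-0.94 to -0.61), among them those without DMSO replicate 1, FHT-1015 replicate 3 or IDE196 replicate 2.

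All 3 NR4A receptors were opposite and up with FHT-1015, against 1.97% of all genes tested, but NR4A1 rose least. NR4A1 (Nur77) stood at 131, 160 and 149 CPM in DMSO and at 161, 211 and 202 CPM with FHT-1015, and fell from 142, 179 and 163 to 23.8, 24.6 and 29 CPM with IDE196. The FHT-1015 replicates only just cleared their controls, and the rise of 1.30-fold was lost when DMSO replicate 1 or FHT-1015 replicate 2 or 3 was left out (log2 fold change 0.30 to 0.34) and with all 48 libraries in one fit (0.41). The fall of 6.26-fold with IDE196 and the difference of 3.03 (SE 0.17, edgeR adjusted p 5.06e-13) passed in every fit.

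The list of MAPK feedback genes holds phosphatases, Sprouty and SPRED inhibitors and PHLDA1, and also the ETS factors ETV1, ETV4 and ETV5, which are targets of the pathway and not inhibitors. IDE196 lowered 14 of the 18 tested, ETV1 and ETV5 among them, and raised 1 (median -0.96), and FHT-1015 raised 5 and lowered 5 (median -0.07). The difference between the drugs was higher under FHT-1015 for 12 and lower for 1. Over all genes 9.03% fell and 6.86% rose with IDE196, 11.3% rose and 16.3% fell with FHT-1015, and 10.7% and 14.0% had a higher and a lower difference. The 5 falls with FHT-1015 became 3 without DMSO replicate 2 or 3 or FHT-1015 replicate 2, with library size alone, with no filter and with GC and length offsets, and all 48 libraries in one fit left 2 rises and 3 falls. SPRY2 stood at 51.3, 49.4 and 49.5 CPM in DMSO and 150, 145 and 154 CPM with FHT-1015, and at 37.3, 42.2 and 41.9 CPM in DMSO and 9.86, 10.6 and 11 CPM with IDE196. The tight replicates put it 2.99-fold up and 3.86-fold down, with a difference of 3.53 (SE 0.17, edgeR adjusted p 5.21e-14). SPRY1 followed it, from 3.78, 5.12 and 6.02 to 13.5, 12.9 and 17.9 CPM with FHT-1015 and from 4.53, 5.25 and 6.52 to 1.44, 0.518 and 1.67 CPM with IDE196. SPRED1, the ETS factor ETV1 and PHLDA1 were opposite on a smaller scale, with FHT-1015 effects of 0.38, 0.45 and 0.47 and IDE196 effects of -0.83, -0.92 and -0.47. All 3 rises were lost with all 48 libraries in one fit (0.41, 0.48 and 0.50), as were the fall and the difference of PHLDA1 (-0.47 and 0.97), and that of SPRED1 also without DMSO replicate 2 or FHT-1015 replicate 1 (0.31 at the lowest).

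SPRY4 and DUSP6, by contrast, responded to IDE196 only. SPRY4 (ENSG00000187678.9, chromosome 5, 142310427 to 142326455) stood at 167, 130 and 143 CPM in DMSO and at 17.7, 18.2 and 17.0 CPM with IDE196, and at 101, 83.8 and 94.3 CPM in DMSO and 101, 86.1 and 73.6 CPM with FHT-1015. The FHT-1015 libraries overlapped their controls (log2 fold change -0.10, 95% interval -0.38 to 0.19), while IDE196 lowered it 8.29-fold, for a difference of 2.96 (SE 0.20, edgeR adjusted p 2.39e-11). DUSP6, the phosphatase of cytoplasmic ERK, fell from 21.1, 20.5 and 21.0 to 5.91, 6.48 and 7.42 CPM with IDE196 and stood at 25.9, 23.9 and 22.4 CPM against 21.9, 21.3 and 24.5 CPM in the FHT-1015 experiment. DUSP2 (log2 fold change -2.21 with IDE196 and 0.26 with FHT-1015) and DUSP5 (-1.39 and -0.01) had the same pattern. Other phosphatases fell with FHT-1015: DUSP8 with it alone (-2.27, against 0.18 with IDE196) and DUSP4 with both (-1.70 and -1.55). Feedback genes were thus found among the opposite genes, among those of either drug only and among those that fell with both.

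The regulators of G protein signalling (RGS) had 3 opposite members among 10 tested, RGS16, RGS2 and RGS19, where 1.97% of all genes tested were opposite in that direction, and 1 that fell with FHT-1015 only, RGS12. RGS2, which acts on the Gq class, went from 30.3, 25.9 and 29.5 to 60.2, 57.8 and 88.5 CPM with FHT-1015 and from 20.7, 26.5 and 37.7 to 3.95, 3.21 and 5.47 CPM with IDE196. RGS12 went from 25.2, 25.5 and 25.3 to 11.9, 12.4 and 15.1 CPM with FHT-1015 and stood at 37.6, 35.3 and 33.2 against 38.1, 36.1 and 41.7 CPM in the IDE196 experiment. FHT-1015 raised 3 RGS genes and lowered 1, IDE196 lowered 5, and the difference was higher for 4 and lower for 1, so that 40.0%, 50.0% and 50.0% of the members were called, against 27.5%, 15.9% and 24.6% of all genes.

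By the same rule, the 6 leading genes of the 273 down with FHT-1015 and up with IDE196 included CHRM1, PCDH1, PRICKLE1, KLHL30 and SPSB1. These are the muscarinic M1 receptor, which couples to Gq, a protocadherin, a planar cell polarity protein, a Kelch family member and a SOCS-box adaptor. CHRM1 (ENSG00000168539.4, chromosome 11, 62908679 to 62921807) stood at 4.38, 4.82 and 4.85 CPM in DMSO and at 0, 0.128 and 0.243 CPM with FHT-1015, against 6.76, 9.17 and 8.82 CPM in DMSO and 10.9, 13.1 and 14.2 CPM with IDE196. PCDH1 (ENSG00000156453.13, chromosome 5, 141853111 to 141879246) fell from 21.1, 12.1 and 11.4 to 0.604, 0.598 and 0.364 CPM with FHT-1015 and stood at 27.0, 25.5 and 25.6 CPM against 41.0, 40.0 and 37.3 CPM in the IDE196 experiment. In both genes the level under FHT-1015 was a small fraction of that in DMSO, and the rise with IDE196 was 1.54-fold and 1.51-fold. That of CHRM1 was lost without DMSO replicate 4 or IDE196 replicate 2 or 3 (log2 fold change 0.49 to 0.60), that of PCDH1 without DMSO replicate 5 or 6 or IDE196 replicate 1 (0.57 to 0.59), and both, with that of KLHL30, in the fit of all 48 libraries (0.63, 0.60 and 0.42). The differences between the drugs, -5.97 (SE 0.43, edgeR adjusted p 6.91e-11) for CHRM1 and -5.37 (SE 0.33, 3.78e-12) for PCDH1, passed in all fits. CHRM1 had at most 4 reads in each FHT-1015 library, so the size of its fitted difference is uncertain.

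PRICKLE1 had the largest rise with IDE196 of these 5, from 10.1, 11.5 and 10.8 to 28.7, 32.2 and 27.0 CPM with IDE196, 2.72-fold, and fell 6.68-fold from 6.16, 7.68 and 8.71 to 0.846, 1.24 and 1.33 CPM with FHT-1015. SPSB1 and KLHL30 fell 9.50-fold and 13.3-fold with FHT-1015 and rose 1.62-fold and 1.34-fold with IDE196. The annotation places PRICKLE1 over PPHLN1, CHRM1 over AP000438.1 and KLHL30 over KLHL30-AS1. Since the libraries carry no strand, reads over the bases that such genes share count as ambiguous and for neither gene. The same holds for NR4A1, EGR3, JUNB, IER2, DUSP6, PHLDA1, SESN1, SESN3, BCL2L11, PIK3IP1, CDKN1A, CDK6, CCN2, AMOTL2, YAP1, TEAD2, ERBB3, RAB27A, SLC24A5, PMEL, RASGRP3, FOXD3, MMP16, LRRC8C, MAML3, KLF16, RASSF8, SMARCA4, SMARCA2, EFNA3, FDFT1 and DDIT4, which share exonic bases with another annotated gene.

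IRF4, a transcription factor that cooperates with MITF at the tyrosinase gene, was opposite at a low level. It had at most 2 reads in each FHT-1015 library, against 1.19, 0.871 and 0.526 CPM in DMSO, which makes it at least 6-fold lower (with a floor of 3 reads per library). With IDE196 it stood at 1.10, 1.30 and 1.00 CPM against 0.640, 0.500 and 0.184 CPM in DMSO. The rise with IDE196 was lost without DMSO replicate 6 or IDE196 replicate 2 (log2 fold change 0.99 to 1.24) and in fits of all 48 libraries or of only the 12 at 4 h (1.35 in each).

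AKT and other growth signals keep the FOXO factors inactive. The list of FOXO targets also holds FOXO1, FOXO3 and FOXO4 themselves. Of its 19 members tested, IDE196 raised 12 and lowered 2 (median 0.69), against 6.86% and 9.03% of all genes. FHT-1015 raised 3 and lowered 9 (median -0.27), against 11.3% and 16.3%, and 7 did not pass. The difference was lower under FHT-1015 for 11 and higher for 1, against 14.0% and 10.7%. In the fit of all 48 libraries IDE196 raised 8 and FHT-1015 lowered 6, 5 rose with FHT-1015 with limma-voom, and 1 fell with IDE196 without DMSO replicate 4, 5 or 6 or IDE196 replicate 2. Of 7 opposite members, 6 fell with FHT-1015 and rose with IDE196, as did 2.1% of all genes: FOXO3 itself, FBXO32 and TRIM63 (ubiquitin ligases), SESN1 and SESN3 (sestrins, which restrain mTORC1) and GADD45A. The other one, CITED2, a coregulator that binds CBP and p300, went the other way (0.80 and -0.48), its fall with IDE196 being lost without DMSO replicate 4, 5 or 6 or IDE196 replicate 2 and with all 48 libraries in one fit (-0.52 to -0.35). SESN3 went from 29, 24.5 and 32.4 to 11.8, 10.2 and 9.83 CPM with FHT-1015 and from 52.4, 27.7 and 37.3 to 153, 90.1 and 111 CPM with IDE196. FOXO3 went from 67.9, 72.1 and 79.9 to 50.9, 52.8 and 42.2 CPM and from 103, 90.0 and 93.0 to 204, 189 and 202 CPM. In these the treated libraries lay on opposite sides of their controls without overlap, and the differences were -3.02 (SE 0.25, edgeR adjusted p 9.70e-10) and -1.65 (SE 0.14, 1.24e-09). Some of these calls were lost with all 48 libraries in one fit: the falls of FOXO3 (-0.57) and SESN1 (-0.60) with FHT-1015 and the rises of SESN1 (0.69) and TRIM63 (0.60) with IDE196. Both calls of GADD45A (-0.88 and 0.79) were lost there and without single libraries, the fall without FHT-1015 replicate 1 (-0.69) and the rise without DMSO replicate 4 or 5 or IDE196 replicate 3 (0.45 at the lowest). CCNG2, an atypical cyclin, rose with IDE196 only (1.46, against 0.20), though its FHT-1015 value passed with limma-voom (0.31). PIK3IP1, an inhibitor of PI3 kinase, rose with both drugs (2.61 and 2.02), with a difference that did not pass except without DMSO replicate 3 of FHT-1015 (0.87). BCL2L11, the pro-apoptotic BIM, fell with both (-0.69 and -1.11).

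The inhibitors of cyclin-dependent kinases CDKN1B (p27) and CDKN2C (p18) were opposite in the same sense. CDKN1B went from 70.2, 84.8 and 80.0 to 54.9, 58.6 and 49.8 CPM with FHT-1015 and from 66.0, 67.9 and 66.5 to 125, 115 and 131 CPM with IDE196, a difference of -1.41 (SE 0.13, edgeR adjusted p 3.46e-09). CDKN2C went from 11.6, 13.2 and 14.6 to 4.71, 6.45 and 7.95 CPM and from 20.2, 22.9 and 18.2 to 36.9, 39.0 and 36.4 CPM. CDKN1A (p21) and CDKN1C (p57) fell with FHT-1015 only (-1.27 and -2.38), though the IDE196 value of CDKN1A (0.38) passed with no filter on low counts (0.37). MYC moved against the inhibitors. It stood at 325, 343 and 378 CPM in DMSO and 558, 511 and 439 CPM with FHT-1015, and at 233, 304 and 318 against 116, 130 and 190 CPM with IDE196. Its rise of 1.44-fold was lost without DMSO replicate 1 or 2 or FHT-1015 replicate 1 (log2 fold change 0.45 to 0.52), and its difference of 1.5 (SE 0.24, edgeR adjusted p 2.37e-05) passed in every fit. CDK6 was opposite as well (0.57 and -0.66), but both calls were lost with all 48 libraries in one fit (0.59 and -0.65). In all, FHT-1015 raised 2 and lowered 11 of the 18 cell cycle entry genes, IDE196 raised 2 and lowered 5, and the difference was higher for 3 and lower for 6. These are 72.2%, 38.9% and 50.0% of the members, against 27.5%, 15.9% and 24.6% of all genes. With all 48 libraries in one fit FHT-1015 raised 1 and lowered 8, IDE196 lowered 2 and the difference was higher for 2 and lower for 4, and 1 rose with FHT-1015 without DMSO replicate 1 or 2 or FHT-1015 replicate 1.

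Among targets of YAP and TEAD, the effectors of the Hippo pathway, CCN2, CCN1 and AMOTL2 were opposite. CCN2 (CTGF, ENSG00000118523.6, chromosome 6, 131948176 to 131951373) fell from 4.54, 4.71 and 2.63 to 0.846, 1.62 and 0.425 CPM with FHT-1015, 3.95-fold, and rose from 4.25, 4.67 and 3.58 to 13.2, 9.33 and 11.4 CPM with IDE196, 2.71-fold. CCN1 (CYR61) fell from 28.6, 30.9 and 25.0 to 17.7, 20.8 and 17.8 CPM and rose from 22.0, 33.3 and 22.2 to 58.0, 57.9 and 62.5 CPM. No library of either gene crossed into its control range, and the differences were -3.42 (SE 0.43, edgeR adjusted p 8.06e-07) and -1.78 (SE 0.20, 2.09e-07). The rise of AMOTL2 with IDE196 (0.35) was lost without IDE196 replicate 1 (0.29) and with all 48 libraries in one fit (0.36), as was the fall of CCN1 in the latter (-0.56). YAP1 passed for neither drug (-0.12 and -0.01), and TEAD2 fell with FHT-1015 only (-0.65, against 0.09). Beside targets, the list holds the factors YAP1, WWTR1 and TEAD1 to TEAD4 themselves. Of 15 members tested, FHT-1015 lowered 7 and raised 0 by edgeR (1 at an unadjusted p under 0.05, 0 by DESeq2 and 2 by limma-voom), IDE196 raised 4 and lowered 1, and the difference was higher for 1 and lower for 6. Members called were 46.7%, 33.3% and 46.7%, against 27.5%, 15.9% and 24.6% of all genes. All 48 libraries in one fit left 4 falls with FHT-1015 and 4 lower differences.

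The 250 bases before the start of CCN2 (RefSeq, GRCh38.p14, chr6:131951373-131951622, minus strand) are shown because this promoter is a standard reporter of TEAD activity. Capitals mark GGAATG, the TEAD motif searched here on both strands.
CCN2: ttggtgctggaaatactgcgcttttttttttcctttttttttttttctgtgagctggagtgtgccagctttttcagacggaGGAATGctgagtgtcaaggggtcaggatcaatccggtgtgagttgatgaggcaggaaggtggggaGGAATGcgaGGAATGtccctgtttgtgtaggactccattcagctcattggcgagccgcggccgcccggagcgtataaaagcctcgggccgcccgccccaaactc
The window holds 3 matches. At least 1 match was found in 10.4% of the 268 promoters of genes down with FHT-1015 and up with IDE196, and in 9.36% of all tested genes with a promoter, so the share among opposite genes was near the background.

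Genes down with FHT-1015 only were led by SOX10, the neural crest factor that specifies melanocytes. SOX10 (ENSG00000100146.17, chromosome 22, 37970686 to 37987422) stood at 386, 443 and 436 CPM in DMSO and at 12.8, 11.2 and 17.6 CPM with FHT-1015. In the IDE196 experiment it stood at 547, 599 and 575 CPM in DMSO and 640, 636 and 656 CPM with the drug. SOX10 was thus 30.7-fold lower with FHT-1015, while the IDE196 libraries sat slightly above their controls without passing the test (log2 fold change 0.17, 95% interval -0.05 to 0.39). The difference was -5.11 (SE 0.16, edgeR adjusted p 1.24e-17). SOX10 overlaps POLR2F in the annotation. CX3CL1, a membrane-bound chemokine, went from 10.8, 8.45 and 12.5 to 0.483, 0.342 and 0.789 CPM with FHT-1015 and stood at 9.42, 12.3 and 14.0 against 11.6, 13.1 and 12.2 CPM in the IDE196 experiment. ST3GAL5, the synthase of ganglioside GM3, and FAM167A fell 11.6-fold and 8.47-fold with FHT-1015, with IDE196 log2 fold changes of 0.16 and 0.23 that did not pass. ERBB3, the neuregulin receptor, went from 161, 120 and 134 to 22.2, 23.2 and 19.2 CPM with FHT-1015 and overlapped its controls in the IDE196 experiment (175, 149 and 183 against 178, 185 and 183 CPM).

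Of 15 pigment and melanosome genes tested, 11 fell with FHT-1015 (median -0.47) and 0 rose, against 16.3% and 11.3% of all genes. With IDE196 0 passed in either direction by edgeR (median 0.06), against 15.9% of all genes. At an unadjusted p under 0.05, 1 of the 15 rose with FHT-1015, and 2 rose and 0 fell with IDE196. DESeq2 called 0 rises with FHT-1015 and 1 rise with IDE196, and limma-voom 1 and 0. The difference between the drugs was lower for 8 by edgeR (10 at an unadjusted p under 0.05, 9 by DESeq2 and 10 by limma-voom) and higher for 0 in each of these, against 14.0% lower and 10.7% higher over all genes. With all 48 libraries in one fit 4 falls with FHT-1015 (26.7% of the list) and 3 lower differences were called, and without DMSO replicate 2 of FHT-1015 the lower differences numbered 5. The difference of TYRP1 (-0.41) was lost in 10 other fits (-0.42 to -0.31) and that of SLC45A2 (-0.48) in 11 (-0.53 to -0.38). RAB27A, which tethers melanosomes to actin through melanophilin and MYO5A, went from 23.2, 25.7 and 23.2 to 12.9, 13 and 9.04 CPM with FHT-1015 and stood at 14.5, 15.8 and 14.2 against 22.4, 17.8 and 18.4 CPM with IDE196. MYO5A, the myosin motor, went from 347, 367 and 348 to 239, 232 and 185 CPM with FHT-1015 (log2 fold change -0.69, lost with its difference of -0.90 when all 48 libraries shared a fit, at -0.67 and -0.88), and its IDE196 libraries overlapped DMSO. The IDE196 effect of RAB27A, 0.40, passed with DESeq2, GC and length offsets, a replicate block or without FHT-1015 replicate 3 (0.39 to 0.41). That of MYO5A, 0.21, passed without DMSO replicate 4 (0.45). MLPH, which links the other two, and SLC24A5, a melanosomal ion exchanger, fell by 1.05 and 1.04 on the log2 scale with FHT-1015. The difference of MLPH (-1.28) was lost without IDE196 replicate 1 (-0.85), and that of SLC24A5 (-0.87) with all 48 libraries in one fit (-0.85). PMEL, the amyloid protein of melanosome fibrils, moved by -0.28 with FHT-1015, a call lost in 12 other fits, and its difference of -0.33 did not pass except with limma-voom.

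Of 22 genes of the Gq to protein kinase C pathway, FHT-1015 lowered 8 and raised 1, against 16.3% and 11.3% of all genes. IDE196 lowered 1 and raised 2, and the difference was lower for 5 and higher for 1, shares near the 15.9% and 24.6% of all genes that passed in either direction. The fit of all 48 libraries called 2 falls with FHT-1015 (9.09% of the list, against 7.02% of all genes) and 1 lower difference. Of the 8 falls, that of TRIO (-0.31) was lost in 13 other fits (-0.32 to -0.14). The lower differences numbered 3 without DMSO replicate 6 or IDE196 replicate 1 or with no filter, and 8 with limma-voom. The rises with IDE196 were both lost without DMSO replicate 4 or 6 or IDE196 replicate 3, with no filter, with the 12 libraries at 4 h and with all 48, and 1 was lost without DMSO replicate 1, 2, 3 or 5, FHT-1015 replicate 2 or IDE196 replicate 2. PRKCD, the delta isoform of protein kinase C, went from 48.7, 43.8 and 45.7 to 17.5, 13.2 and 18.4 CPM with FHT-1015 and stood at 29.3, 39.8 and 36.9 against 32.7, 34.4 and 35.6 CPM with IDE196. PRKCB also fell with FHT-1015 (-1.10), but lost its fall (-1.08) and its difference (-1.35) with all 48 libraries in one fit. GNAQ passed for neither drug (-0.01 and -0.04). RASGRP3, the RAS activator that links protein kinase C to MAPK in uveal melanoma, fell with both drugs, from 279, 287 and 281 to 233, 218 and 179 CPM with FHT-1015 and from 269, 222 and 269 to 104, 96.5 and 103 CPM with IDE196. The fall was larger with IDE196 (difference 0.90, SE 0.14, edgeR adjusted p 2.34e-05), and that with FHT-1015 was lost with all 48 libraries in one fit (-0.40).

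The 4 genes with the largest difference among those up with FHT-1015 only were SPDYE3, ALX1, FOXD3 and MMP16. ALX1, a homeobox factor of the neural crest, went from 39.7, 33.5 and 31.2 to 101, 103 and 111 CPM with FHT-1015 and stood at 17.4, 23.2 and 21.1 against 16.3, 18.9 and 20.9 CPM with IDE196. FOXD3, a repressor that marks early neural crest, went from 4.11, 4.46 and 5.55 to 11.6, 13.9 and 20.8 CPM and stood at 8.36, 13.8 and 11.1 against 10.7, 11.8 and 12.6 CPM. Both were clear of their controls with FHT-1015 and overlapped them with IDE196, with differences of 1.74 (SE 0.16, edgeR adjusted p 8.94e-09) and 1.63 (SE 0.30, 0.000185). SNAI2 (SLUG), another neural crest factor, behaved likewise, from 217, 216 and 181 to 568, 566 and 512 CPM with FHT-1015 against 126, 160 and 155 and 145, 142 and 151 CPM in the IDE196 experiment. MMP16, a membrane-bound matrix metalloproteinase, rose 2.68-fold. SPDYE3 rose 4.07-fold, but it belongs to a family of near-identical copies and overlaps PMS2P1, so its count is uncertain. Of the 13 melanocyte regulators tested, which include SOX10, IRF4 and SNAI2, FHT-1015 raised 2 and lowered 5, IDE196 raised 3 and lowered 3, and the difference was higher for 2 and lower for 6. These are 53.8%, 46.2% and 61.5% of the members, against 27.5%, 15.9% and 24.6% of all genes. IDE196 moved 1 each way without DMSO replicate 6, lowered 1 without IDE196 replicate 2, raised 1 in the fit of the 12 libraries at 4 h and moved 1 in all with all 48, where FHT-1015 lowered 3.

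Genes moved by IDE196 only were led, beside SPRY4, by LRRC8C, MAML3 and KLF16 among falls and by ZC3H6, RASSF8, P2RX7 and PDE4B among rises. LRRC8C, a subunit of volume-regulated anion channels, went from 40.8, 35.7 and 42.8 to 8.37, 8.87 and 7.53 CPM with IDE196 and stood at 24.0, 20.4 and 23.8 against 30.6, 19.6 and 23.4 CPM with FHT-1015. MAML3, a coactivator of Notch, went from 46.8, 47.5 and 53.1 to 8.07, 13.3 and 17.0 CPM. KLF16 fell 2.81-fold with IDE196. Its FHT-1015 log2 fold change of 0.23 passed with the stranded columns summed (0.30), with GC and length offsets (0.29) and without FHT-1015 replicate 1 (0.32), so that it is opposite in those fits. On the rising side, P2RX7, an ATP-gated channel, went from 60.8, 46.8 and 52.7 to 126, 99.7 and 99.1 CPM with IDE196 and stood at 89.8, 79.2 and 96.5 against 90.5, 64.4 and 62.3 CPM with FHT-1015. Its FHT-1015 value of -0.29 passed with limma-voom (-0.37) and without FHT-1015 replicate 1 (-0.48). PDE4B, which degrades cyclic AMP, rose from 24.5, 34.4 and 37.4 to 62.2, 58.3 and 76.7 CPM, and RASSF8 and ZC3H6 rose 2.35-fold and 2.51-fold. The differences between the drugs were -1.28 to -1.52 for these 4 rises and 1.72 to 2.96 for the 4 falls.

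Of the genes that moved the same way with both drugs, 18 rose and 112 fell with a difference between the drugs, and 147 rose and 240 fell with none shown. CCND1 (cyclin D1), which overlaps LTO1, fell with both, from 289, 283 and 311 to 110, 115 and 113 CPM with FHT-1015 and from 659, 453 and 526 to 150, 143 and 149 CPM with IDE196. The falls were 2.62-fold and 3.70-fold, and the difference of 0.50 (SE 0.14, edgeR adjusted p 0.00845) was lost with all 48 libraries in one fit (0.52). MITF stood at 358, 366 and 346 CPM in DMSO and 342, 288 and 228 CPM with FHT-1015, and at 517, 498 and 490 against 350, 357 and 314 CPM with IDE196. Its fall with IDE196 (log2 fold change -0.56) and that with FHT-1015 (-0.32, edgeR adjusted p 0.0344) were each without overlap, the latter only just, and no difference between the drugs was shown (0.24, edgeR adjusted p 0.296). The FHT-1015 fall was lost without any 1 of DMSO replicates 1, 2 or 3 or FHT-1015 replicates 2 or 3 (-0.35 to -0.18) and with library size alone (-0.28), and both falls were lost with all 48 libraries in one fit (-0.29 and -0.55).

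The catalytic subunits of the BAF complexes themselves had small log2 fold changes. SMARCA4 stood at 269, 292 and 298 CPM in DMSO and 331, 361 and 400 CPM with FHT-1015, a rise of 1.27-fold that was lost with all 48 libraries in one fit (log2 fold change 0.37), and did not pass with IDE196 (0.11). The difference between the drugs for SMARCA4, 0.24, did not pass, but did with GC and length offsets (0.51). SMARCA2 rose with IDE196 from 50.6, 44.3 and 44.4 to 60.2, 56.6 and 56.7 CPM (0.32), a call lost when any 1 of 6 libraries was left out (0.28 to 0.33), and its difference of -0.48 was lost without FHT-1015 replicate 3 (-0.38), with GC and length offsets (-0.28), with no filter (-0.46) and with all 48 libraries in one fit (-0.46). The larger changes were in subunits of restricted or alternative use: SS18L1 (CREST) fell from 178, 183 and 180 to 59.2, 61.3 and 59.6 CPM with FHT-1015, and DPF1 and DPF3 had FHT-1015 log2 fold changes of -1.36 and -2.74 and fell too. For these 3 the difference between the drugs also passed (-1.81, -1.83 and -3.22). The IDE196 value of DPF1 (0.47) passed with limma-voom, the 12 libraries at 4 h and GC and length offsets (0.44 to 0.51), and that of SS18L1 (0.22) without IDE196 replicate 2 (0.35). Of 27 subunits tested, FHT-1015 raised 6 and lowered 3, IDE196 raised 3 and lowered 2, and the difference was higher for 3 and lower for 4, a share of 25.9%, close to the 24.6% over all genes. The shares called for FHT-1015 (33.3%) and IDE196 (18.5%) stood beside 27.5% and 15.9%. With GC and length offsets FHT-1015 raised 10 and the difference was higher for 7, and with all 48 libraries in one fit FHT-1015 raised 2, the difference was lower for 3 and every other call of the difference and of IDE196 was lost. IDE196 raised 1 without DMSO replicate 5 or 6 or IDE196 replicate 1 or 3 or with no filter and 5 with limma-voom, and lowered 1 without IDE196 replicate 2.

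Among ephrins and their receptors, 8 of 18 tested had a lower difference and 1 a higher one, against 14.0% and 10.7% of all genes. FHT-1015 raised 2 and lowered 8 (11.3% and 16.3% of all genes), and IDE196 raised 2 and lowered 2 (6.86% and 9.03%). The differences of EFNA2 (-0.56) and EPHA4 (-3.02) were each lost in 12 other fits (-0.60 to -0.40 and -3.07 to -2.51). With all 48 libraries in one fit FHT-1015 lowered 4 and the difference was lower for 5, and each pair of calls (the rises with FHT-1015 and the rises and falls with IDE196) became 1 there and without some single libraries. EFNA1, a ligand of EphA receptors, rose from 1.19, 2.25 and 1.98 to 12.4, 10.5 and 10.7 CPM with IDE196 and stood at 2.27, 3.53 and 2.22 against 3.38, 4.10 and 4.61 CPM with FHT-1015. The FHT-1015 libraries overlapped their controls, and that call (log2 fold change 0.57) was lost when any 1 of 8 libraries was left out (0.45 to 0.57). It was also lost with no filter (0.57), with the 12 libraries at 4 h (0.57) and with all 48 in one fit (0.6). EFNB3 went from 31.6, 27.8 and 29.3 to 14.3, 16.1 and 17.1 CPM with FHT-1015 and passed for that drug only. EPHA2 fell with both (-1.0 and -1.25), EFNA5 rose with FHT-1015 (1.59), and EFNA3 was opposite (-0.68 and 0.46), with its IDE196 rise lost when any 1 of 4 libraries was left out, with limma-voom, with no filter, with the 12 libraries at 4 h and with all 48 (0.34 to 0.52), and its FHT-1015 fall with all 48 (-0.65).

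Responses to BMP and TGF-beta were mixed. FHT-1015 raised 6 and lowered 3 of 13 tested, IDE196 raised 8 and lowered 1, and the difference was higher for 3 and lower for 6. Each test called 69.2% of the members, against 27.5%, 15.9% and 24.6% of all genes, and with all 48 libraries in one fit the difference was higher for 1 and lower for 4. ATOH8 fell with both, 12.8-fold with FHT-1015 and 1.60-fold with IDE196. ID3 was opposite (-0.85 and 0.56), but its IDE196 libraries overlapped DMSO and the rise was lost without DMSO replicate 4 or IDE196 replicate 2 or 3 (0.31 to 0.54). That rise was lost too in the fits of the 12 libraries at 4 h and of all 48 (0.57 in each). Of 16 cholesterol genes FHT-1015 raised 2 and lowered 2, IDE196 lowered 2, and the difference was higher for 2 and lower for 3, among them squalene synthase FDFT1 (1160, 1094 and 1117 CPM in DMSO, 657, 677 and 631 CPM with FHT-1015). Those shares, 25.0%, 12.5% and 31.2%, lay near the 27.5%, 15.9% and 24.6% of all genes. They depended on the fit: limma-voom called 5 rises and 5 falls with FHT-1015, 4 falls with IDE196 and 5 higher differences, a replicate block or GC and length offsets gave 4 falls with IDE196, library size alone gave 4 higher differences, and 1 fall with IDE196 was left without DMSO replicate 6. All 48 libraries in one fit left 1 call each way for FHT-1015 and the difference. Of 14 ATF4 genes FHT-1015 raised 2 and lowered 3, IDE196 raised 1 and lowered 4, and the difference was higher for 1 and lower for 3. The shares were 35.7% for FHT-1015, 35.7% for IDE196 and 28.6% for the difference, against 27.5%, 15.9% and 24.6% of all genes. The 2 rises with FHT-1015 were 1 to 4 in other fits, 4 of them without FHT-1015 replicate 1, with limma-voom and with GC and length offsets, and 1 without DMSO replicate 1 or FHT-1015 replicate 2 or 3. Without FHT-1015 replicate 2, 5 members fell. Of the ATF4 genes, DDIT4, an inhibitor of mTORC1, rose with IDE196 from 1.74, 1.5 and 1.42 to 6.12, 4.10 and 6.75 CPM, and SESN2 fell with FHT-1015 (-1.53). Of the markers of other cell types 7 were tested, and 0 passed by edgeR for either drug or for their difference. At an unadjusted p under 0.05, 1 rose and 1 fell with FHT-1015 and 0 moved with IDE196 or in the difference. DESeq2 called 0, and limma-voom called 1 rise and 1 fall with FHT-1015 and 1 lower difference. Without DMSO replicate 6, COL1A1 and COL1A2 rose with IDE196 (0.68 and 2.40), and COL1A1 had a lower difference (-0.86).

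**Figure D3:**
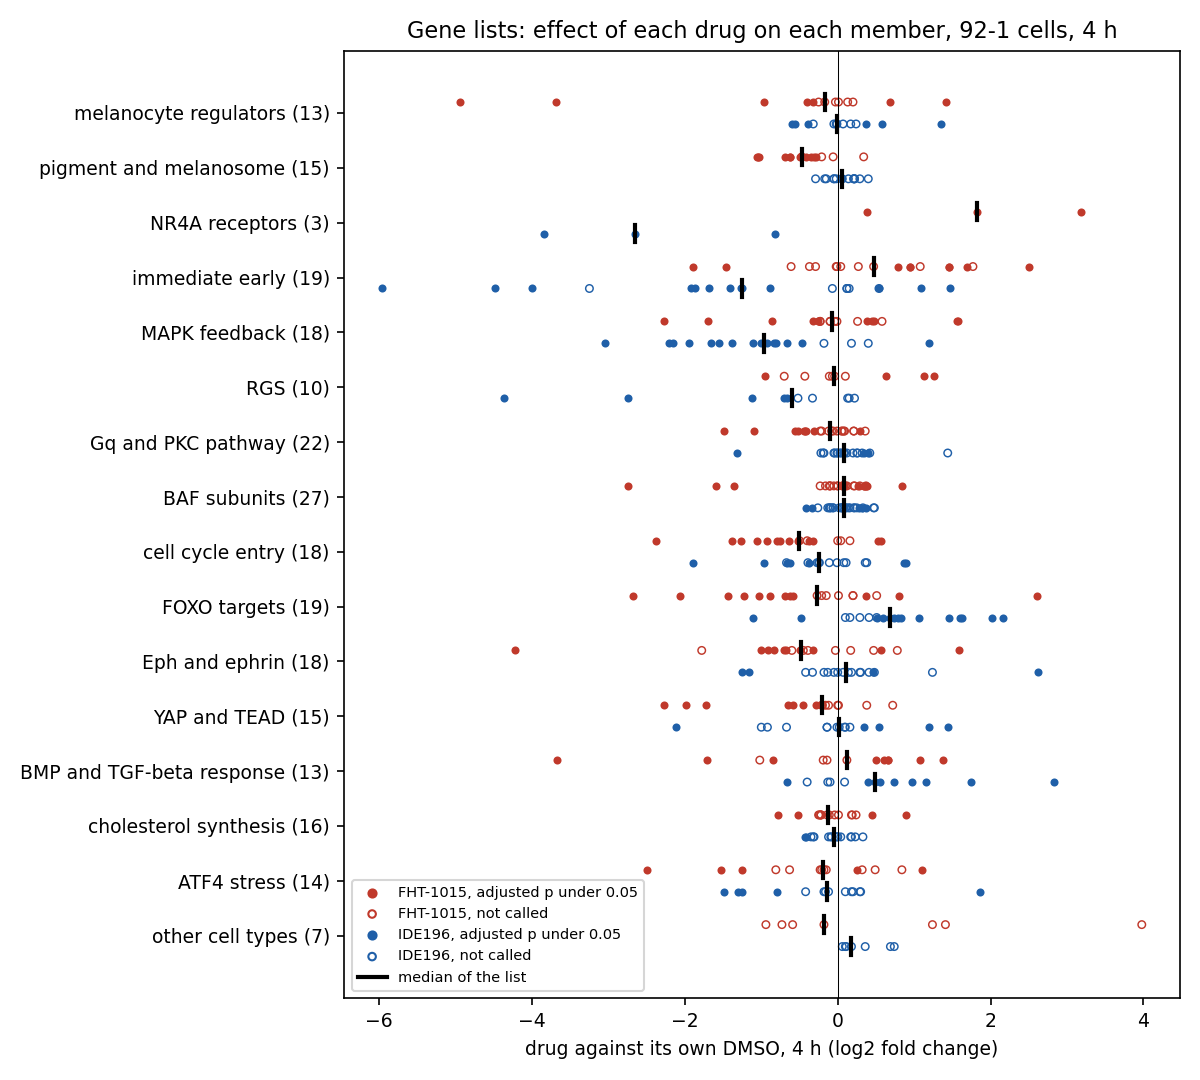
Log2 fold change with FHT-1015 (red) and IDE196 (blue) of each tested member of 16 gene lists in 92-1 at 4 h, filled where the adjusted p is under 0.05, with a black bar at each list's median and the number of members tested in brackets. Among lists with medians on different sides of 0, these lie furthest apart for the NR4A receptors (1.82 and -2.65), immediate early genes (0.47 and -1.25) and FOXO targets (-0.27 and 0.69). The others are pigment and melanosome (-0.47 and 0.06), Gq and PKC pathway (-0.1 and 0.08), Eph and ephrin (-0.48 and 0.1), YAP and TEAD (-0.21 and 0.02) and other cell types (-0.18 and 0.18).

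The 4 h responses of 92-1 were then followed into other lines and to 24 h. In MEL202 and MP41, other uveal melanoma lines treated with FHT-1015 for 4 h, few genes passed the edgeR test, so directions are given. In MEL202 0.679% of the genes tested passed (0.157% higher and 0.522% lower) and in MP41 0.225% (0.0708% higher and 0.154% lower). With limma-voom 0.723% passed in MEL202 (0.101% higher and 0.622% lower) and 4.18% in MP41 (1.28% higher and 2.9% lower). Of the genes up with FHT-1015 and down with IDE196 in 92-1, 86.9% had a log2 fold change above 0 in MEL202 and 85.9% in MP41, against 47.3% and 51.3% of all genes. For those down with FHT-1015 and up with IDE196 the shares were 17.5% and 15.2%. Genes responsive to FHT-1015 only had shares of 83.4% and 86.1% (up) and 21.0% and 16.7% (down), much like the opposite genes. Of the genes down with IDE196 only, 65.5% lay above 0 with FHT-1015 in MEL202 and 69.2% in MP41. Of those up with IDE196 only, 50.0% and 34.0% did. NR4A3 and NR4A2 rose in both lines (NR4A3 by 1.78 and 1.06, NR4A2 by 1.67 and 1.85), MYC did too (0.96 and 0.77), and SOX10 fell in both (-3.04 and -2.26). EGR1 did not pass in either, with 0.93 in MEL202 and -0.51 in MP41.

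At 24 h in 92-1 the drugs moved more genes in common. FHT-1015 changed 56.4% of the genes tested and IDE196 54.8%. Of 6532 genes changed by both at 24 h, 5449 (83.4%) had the same sign, against 42.9% at 4 h, and the correlation of the effects across genes was 0.375 (Spearman 0.483). Each drug at 24 h was read against its own 24 h DMSO. Of the genes up with FHT-1015 and down with IDE196, 84.1% were lower at 24 h with IDE196 (27.9% of all genes were) and 1.5% higher (26.9% of all). Of those in the reverse class, 82.5% were higher and 2.54% lower. The FHT-1015 directions of 4 h were read in the same way. Of the 334 genes that rose with it at 4 h and fell with IDE196, 20.1% were higher and 53.9% lower at 24 h (26.4% and 30.1% over all genes), so by then more of them lay on the side that IDE196 had taken at 4 h. Of the 355 of the reverse class, 46.8% were lower and 27.9% higher with FHT-1015 at 24 h, and of the genes up with FHT-1015 only, 42.0% were higher and 24.9% lower. Of the genes up with IDE196 only at 4 h, 52.4% were higher and 17.6% lower with FHT-1015 at 24 h, and of those down with IDE196 only, 69.8% were lower and 9.58% higher. Of genes down with FHT-1015 only at 4 h, 55.4% were lower with it at 24 h and 39.3% were higher with IDE196, whose background was 26.9%.

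**Figure D4:**
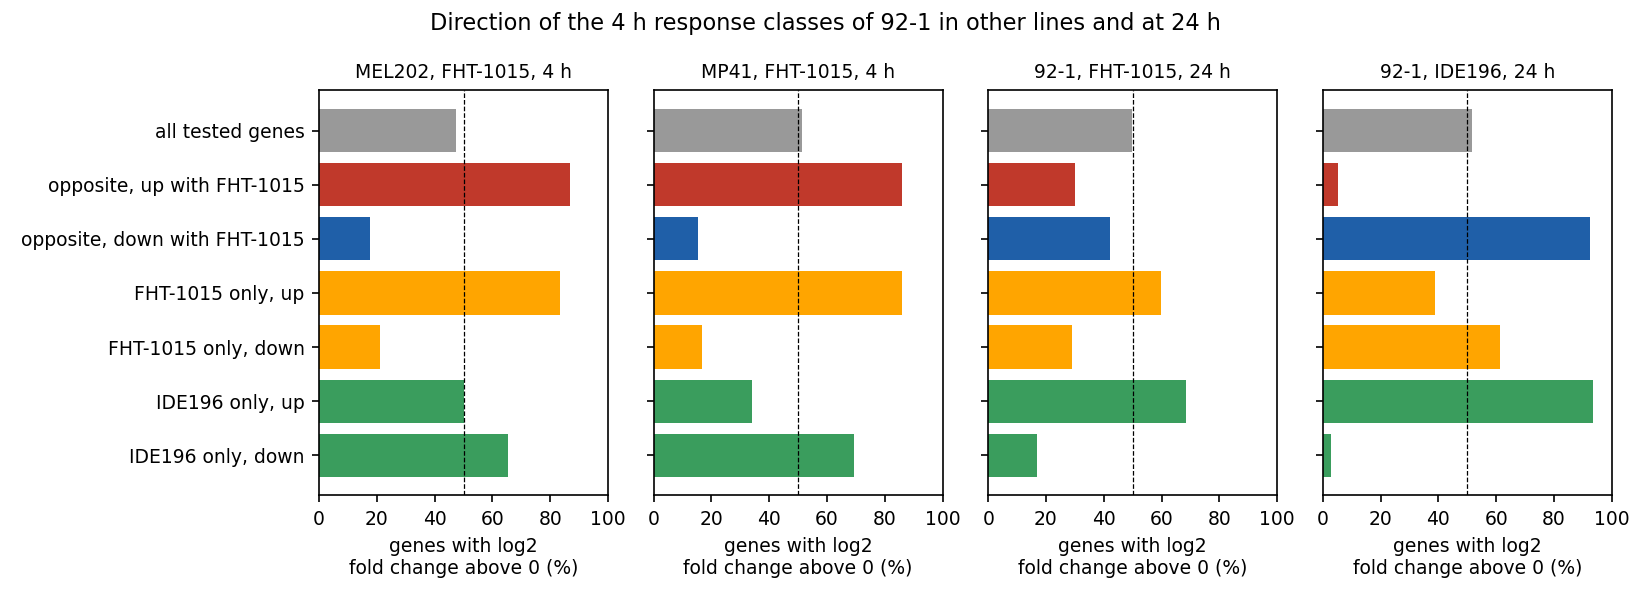
Share of genes with a log2 fold change above 0 in MEL202 and MP41 at 4 h with FHT-1015 and in 92-1 at 24 h with either drug, for all tested genes and for each response defined in 92-1 at 4 h; the dashed line is at 50%. Opposite genes keep the FHT-1015 direction in the other lines (86.9% and 17.5% in MEL202) and the IDE196 direction with IDE196 at 24 h (5.39% and 92.4%), while with FHT-1015 at 24 h 29.9% and 42.0% lie above 0.

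The difference between the drugs itself changed from 4 to 24 h for 3219 genes (19.0%), 9.4% higher and 9.62% lower. It remained large for NR4A3 (5.67 and 5.96), SOX10 (-5.11 and -5.36), RGS16 (5.50 and 5.66) and SPRY2 (3.53 and 4.48). These values came about differently at the 2 times. For RGS16 the FHT-1015 effect went from 1.13 to -1.13 while the IDE196 effect went from -4.37 to -6.79, and for SOX10 the IDE196 effect went from 0.17 to 0.66. The difference for SNAI2 turned from 1.43 to -2.33, as its FHT-1015 effect went from 1.42 to -1.61 (change -3.76, edgeR adjusted p 1.28e-11). P2RX7 went from -1.31 to -5.33 with an FHT-1015 effect of -3.93 at 24 h.

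Several features of the genes themselves were compared between the responses. Median exon length was 4908 bases in genes up with FHT-1015 and down with IDE196 and 6138 bases in the reverse class, against 4348 over all tested genes. The opposite and 1-drug classes were 89.6 to 96.5% protein-coding, against 77.5% of all tested genes. Their median levels in the DMSO for FHT-1015 were 14.6 to 51.8 CPM, against 13.4 CPM. The part of gene type and level in the comparisons of this paragraph was not tested. GC content of exons was 51.6% (median) in genes down with FHT-1015 only and 45.5% in those up with it only, against 48.2% over all. The share of genes in which the 2 DMSO sets differed was 58.4% and 56.1% in the 2 opposite classes and 48.7 to 56.6% in the 1-drug classes, above the 46.1% of all tested genes, and its part in the differences between the drugs was not tested. In the promoters, the core TGACG was found in 38.3% of genes down with IDE196 only and in 23.4% of those down with FHT-1015 only, on either side of the 29.8% of all tested genes. The E-box CACGTG was found in 13.3% of the former, 13.6% of genes up with FHT-1015 only and 8.84% of all.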

How the data were processed

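RNA-seq of the uveal melanoma line 92-1 was used at 4 h (12 libraries in 4 groups of 3). The authors deposited raw read counts per gene, 1 file per library in the layout of STAR's gene counts. Per the labels' protocols, poly-A RNA from frozen cell pellets was sequenced. Per the submitters' processing notes, hg38 and limma were used, with no version. The annotation and the aligner's version are not given in the sources used here. The unstranded column was used, since the stranded columns were near equal (49.73 to 50.0% on the first strand). Reads over bases shared by 2 genes therefore count as ambiguous and for neither gene. Rows of unassigned reads and spike-ins (0 reads) were left out. Reads outside genes made 2.35 to 6.77% and ambiguous reads 11.0 to 12.1% of those assigned, outside genes or ambiguous.

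Counts of the 24 libraries of 92-1 at 4 and 24 h were fitted together (edgeR 4.0.16 in R 4.3.3, TMM, filterByExpr, quasi-likelihood test, 8 groups, no covariate), leaving 16917 genes. The biological coefficient of variation was 0.115. MEL202 and MP41 (12 libraries each) were fitted separately. P-values were adjusted over all genes tested (Benjamini-Hochberg) and called under 0.05. The fit was also run on simulated counts, with an outcome that is not given here. Symbols and positions came from GENCODE 29 (GRCh38), which held 58552 of the 58870 identifiers. RefSeq promoters matched 55 of the 75 named genes. Named genes were protein-coding, averaged at least 5 CPM over the 12 libraries and did not overlap their controls for each drug said to move them. They were the 6 opposite genes each way with the largest difference, and the 4 each way for each drug only with the other drug's 95% interval within 1.5-fold. To these were added SOX10, MITF, NR4A1, NR4A2, NR4A3, EGR1, FOS, MYC, CCND1, DUSP6, RGS16, SMARCA4, SMARCA2 and the 3 members of each list with the smallest p for the difference. Other list members were chosen after their values were seen. Some genes that meet this rule are not reported here. The genes and the 16 lists were chosen with earlier results of these data known. Alternatives were RLE scaling, library size alone, no filter, DESeq2 1.42.0, limma-voom (limma 3.58.1) with quality weights, the 12 libraries at 4 h, all 48 libraries, the summed stranded columns, a replicate block, GC and length offsets, and leaving out each library. The number of libraries per group limits precision.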

Additional observations from a re-analysis of the deposited data

Results flagged for a closer look

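The difference between the drugs (FHT-1015 effect minus IDE196 effect, each against its own DMSO) was compared between 4 and 24 h in 92-1. It changed past the threshold for 46 of the named genes reported here, 27 with a higher and 19 with a lower value at 24 h (edgeR, log2 scale), against 9.4% and 9.62% of all genes tested. The named genes were mostly chosen for a large difference at 4 h, so no more is read from that count. MITF had no difference shown at 4 h (0.24) and one of -1.75 at 24 h, a change of -1.99 (SE 0.22, edgeR adjusted p 2.25e-07), with a fall of -1.66 under FHT-1015 and a value of 0.08 under IDE196 that did not pass. For MYC the difference went from 1.5 to -0.12, a change of -1.62 (SE 0.33, edgeR adjusted p 0.000823), and both drugs lowered it at 24 h (-1.90 and -1.78). For NR4A2 it went from 4.00 to 6.44, a change of 2.43 (SE 0.46, edgeR adjusted p 0.000334).

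Other named genes whose fitted difference had another sign at 24 h were SNAI2 (change -3.76), FOXD3 (-2.02), CCND1 (-0.94), SC5D (-0.85), MVD (-0.75), PDE4B (2.91) and CCN1 (1.91). The 24 h difference itself passed for SNAI2 (-2.33), CCND1 (-0.44) and PDE4B (1.62). It did not pass for FOXD3 (-0.39), SC5D (-0.10), MVD (-0.02) and CCN1 (0.13), so no opposite sign was shown for these. The difference was larger in size at 24 h for the MAPK feedback genes SPRY1 (2.89), SPRY4 (2.91), SPRY2 (0.95) and DUSP6 (2.54), and for MMP16 (3.64), ALX1 (2.04) and RASGRP3 (1.29). It was more negative for P2RX7 (-4.02), ERBB3 (-2.39), RAB38 (-1.57), MYO5A (-1.46), FDFT1 (-0.95), PRKCD (-0.82) and IRF4 (-4.97). IRF4 was near 0 reads under FHT-1015, so its fitted value depends on the prior count and is no bound.

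The difference was smaller in size at 24 h for EGR1 (-2.75), DUSP2 (-2.27), FOS (-2.26), SPDYE3 (-1.02) and KLF16 (-0.93), which were higher under FHT-1015 at 4 h. The same held for genes that were lower under FHT-1015 at 4 h. Among those, the changes were 2.93 for ST3GAL5, 2.22 for KLHL30, 2.15 for FAM167A, 2.10 for CCN2, 1.97 for PCDH1, 1.86 for CDKN2C, 1.76 for SESN2 and 1.69 for CX3CL1. They were 1.59 for AMOTL2, 1.46 for PRICKLE1, 1.31 for ZC3H6, 1.29 for ID3, 1.22 for CDKN1B, 1.15 for DPF1, 0.92 for EFNA3, 0.67 for RGS12 and 0.55 for EFNB3. The DMSO sets differ between the times as well as between the drugs, and their part in these changes was not tested.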

How the results depend on the processing

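Over 10 alternative fits, 2189 of 2250 values of the 75 named genes kept their direction and side of the threshold, 39 lost and 22 gained a call, and 0 turned. Over the 12 fits without 1 library, 2645 of 2700 did so, 46 lost and 9 gained, and 0 turned. With all 48 libraries in one fit, the difference between the drugs was higher for 727 and lower for 1030 genes, FHT-1015 raised 764 and lowered 1325, and IDE196 raised 348 and lowered 547. The opposite genes then numbered 82 up and 94 down with FHT-1015, those of FHT-1015 only 275 up and 708 down, and those of IDE196 only 91 up and 242 down. The cause was not tested. With limma-voom FHT-1015 raised 3251 genes, 1119 of them with FHT-1015 only. With limma-voom in MEL202 (0.101% of all genes higher, 0.622% lower), 6 genes opposite and up with FHT-1015 were higher and 21 of the reverse class lower, 4 of FHT-1015 only up were higher and 48 of FHT-1015 only down lower, 1 of IDE196 only up was higher and 1 lower, and 1 of IDE196 only down was higher. With limma-voom in MP41 (1.28% higher, 2.90% lower), 44 genes opposite and up with FHT-1015 were higher and 2 lower, and 67 of the reverse class were lower. There, 47 genes of FHT-1015 only up were higher, 1 of FHT-1015 only down was higher and 156 lower, 7 of IDE196 only up were higher and 10 lower, and 14 of IDE196 only down were higher and 11 lower.

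Without single libraries the counts stayed within 1.5-fold: the difference was higher for 1529 to 1935 and lower for 2073 to 2417 genes, FHT-1015 raised 1325 to 1993 and lowered 2255 to 2802, IDE196 raised 841 to 1216 and lowered 1261 to 1599, opposite genes numbered 231 to 337 and 262 to 348, FHT-1015 only 526 to 757 and 1143 to 1404, and IDE196 only 243 to 359 and 471 to 602. IDE196 replicates 1 to 3 and their DMSO replicates 4 to 6 share no numbers, so a replicate block could be fitted only for FHT-1015. There same-numbered libraries deviated from their group means with correlations of 0.207, 0.0305 and 0.0846. Libraries of unlike number had correlations of -0.144 to 0.0533, and FHT-1015 replicates 1 and 3 correlated best with their own number. FHT-1015 replicate 2 correlated as well with number 3 (0.0306), and the numbers were not taken to pair the samples. With that replicate block the difference was higher for 1896 and lower for 2492 genes, FHT-1015 raised 1982 and lowered 2891, and opposite genes numbered 372 and 409.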
